A study of Mus musculus with 54 samples.

Results

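The genes described here encode the enzymes of fatty acid oxidation, the nuclear receptor PPAR alpha and further targets of that receptor, 35 genes named by symbol. All 35 were found among the 19068 genes of the expression table, none was listed at 0 in any library, and all 35 were among the 15424 genes averaging 1 TPM or more that were tested. TPM is a level scaled to transcript length and to the library. The RNA came from the S3 segment, the late proximal tubule of the mouse kidney, cut out by laser as 70 to 80 tubules per sample that bound the lectin LTL and lacked the glucose carrier SGLT2.

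All groups were male DBA mice of 14 weeks, treated for 2 weeks. The diabetic mice carried 1 Akita allele of Ins2 (Ins2 Akita/+), an insulin mutation that causes loss of beta cells, and the nondiabetic littermates were Ins2 +/+. Akita groups were Sglt1 +/+ (WT) with semaglutide, dapagliflozin or vehicle, and Sglt1 -/- (KO) with dapagliflozin or vehicle. Nondiabetic groups were KO or WT, each with dapagliflozin or vehicle. Semaglutide, an agonist of the GLP-1 receptor, was injected under the skin at 3 nmol per kg per day, and dapagliflozin, an inhibitor of SGLT2, was given at 10 mg per kg of diet. Values exist for 5 libraries each of Akita WT with semaglutide and with dapagliflozin, and for 6 of each other group, 52 in all. Whether the samples came from separate mice is not stated, so the p-values measure the spread between samples. How the knockout was made is not given in the sources used here.

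Fatty acids enter the tubule cell through carriers such as CD36 and FATP2 (Slc27a2), are bound to coenzyme A and pass into mitochondria through the carnitine shuttle. There, acyl-CoA dehydrogenases, hydratases, hydroxyacyl-CoA dehydrogenases and thiolases shorten the chain in repeated rounds, and peroxisomes do the same for very long and branched chains. PPAR alpha, a nuclear receptor that binds fatty acids and pairs with RXR on DNA, drives many of these genes. The proximal tubule relies on fatty acids for most of its ATP.

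Read depth is unknown, since the files hold only scaled values, and no interval below covers counting error. The summed TPM ran from 984393 to 2253870 per library and 16206 to 18421 genes had a value above 0. The 7 S3 markers summed to 7456 TPM in the median library (2739 to 9485) and the 10 markers of the S1 and S2 segments to 586 TPM (246 to 2749). Markers of other cells were present at medians of 1293 TPM for the loop of Henle, 509 for macrophages and dendritic cells, 322 for endothelium, 126 for distal tubule and collecting duct, 123 for stroma and smooth muscle and 23.2 for podocytes, with no marker at 0 in all libraries. Of 5 adipocyte markers 1, Car3, was in the table. Single genes made up much of several sums. Mean levels were 4357 TPM for Atp11a among the S3 markers and 320 TPM for Slc34a1 among those of S1 and S2. Csf1r averaged 320 TPM in the macrophage and dendritic cell list, where the median marker averaged 5.52 TPM. The sums therefore do not rank cell types by amount. In bulk samples, fewer cells of a type and less RNA per cell cannot be told apart. The targeted gene Slc5a1 averaged 0.776 to 0.828 TPM in the 4 KO groups and 55.01 to 86.2 TPM in the 5 WT groups. Slc5a2, which encodes SGLT2, ran from 3.93 to 205 TPM over the 52 libraries.

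Slc27a2 stood far above the rest of the group. It encodes FATP2, which takes up long-chain fatty acids and activates very long ones (ENSMUSG00000027359, chromosome 2, 126552407 to 126588243, GRCm38). It averaged 7855 ± 1535 TPM (SD, n = 52), ranked first of the 35 in each of the 52 libraries and held 59.6% of their summed mean TPM. Acadm, the medium-chain acyl-CoA dehydrogenase, ranked second in every library at 1429 ± 450 TPM. Crot, which makes carnitine esters of the products of peroxisomal oxidation, followed at 624 ± 172 TPM and exceeded the next gene, Ehhadh, in 50 of 52 libraries.

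Below these, neighbours in the order overlapped. Ehhadh, the peroxisomal bifunctional enzyme, averaged 349 ± 129 TPM, against 308 ± 83.9 TPM for Etfb, a subunit of the electron transfer flavoprotein, and was the higher of the pair in 26 of 52 libraries. Acadl, the long-chain acyl-CoA dehydrogenase, averaged 306 ± 77.0 TPM and Cd36 275 ± 103 TPM. The lowest genes were Pdk4, which restrains pyruvate dehydrogenase, at 8.24 ± 7.10 TPM, Plin2, a lipid droplet coat protein, at 9.87 ± 6.84 TPM, and Angptl4, an inhibitor of lipoprotein lipase, at 9.93 ± 9.77 TPM. Their order differed between libraries.

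The receptor itself, Ppara (chromosome 15, 85734983 to 85802819), averaged 53.4 ± 12.1 TPM. Its group means ran from 47.2 ± 17.5 TPM in nondiabetic KO with dapagliflozin to 58.5 ± 7.13 TPM in nondiabetic KO with vehicle (SD, n = 6 each). Averaged over genotype and dapagliflozin, the difference with diabetes was log2 0.04 (95% interval -0.16 to 0.24, adjusted p = 0.89 in limma). Among the 3 named entry enzymes the levels were unequal: Cpt1a, the regulated step of the carnitine shuttle, averaged 138 ± 26.6 TPM, Cpt2, which reverses it inside the mitochondrion, 106 ± 32.5 TPM, and Acsl1, an acyl-CoA synthetase, 23.3 ± 14.1 TPM. Slc25a20, the carrier that exchanges carnitine esters across the inner membrane, averaged 19.3 ± 4.98 TPM.

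Subunits of 1 complex did not have equal levels. Hadha and Hadhb encode the alpha and beta subunits of the mitochondrial trifunctional protein and lie next to each other on chromosome 5 (30118304 to 30155162 and 30155248 to 30184593). They averaged 127 ± 21.9 and 33.8 ± 8.67 TPM. Of the sequence of Hadhb 19.7% (as stretches of 50 bases) occurs in other genes, mostly the predicted gene Gm13910, and how reads of such sequence were assigned is not given in the sources used here. Etfa and Etfb averaged 144 ± 38.2 and 308 ± 83.9 TPM, and 44.8% of the Etfb sequence is shared, mostly with Gm45233. The values of Acaa1b, a peroxisomal thiolase that shares 30.5% with its copy Acaa1a, and of Acot2, a mitochondrial acyl-CoA thioesterase that shares 24.5% with Acot1, are uncertain in the same way.

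**Figure D1:**
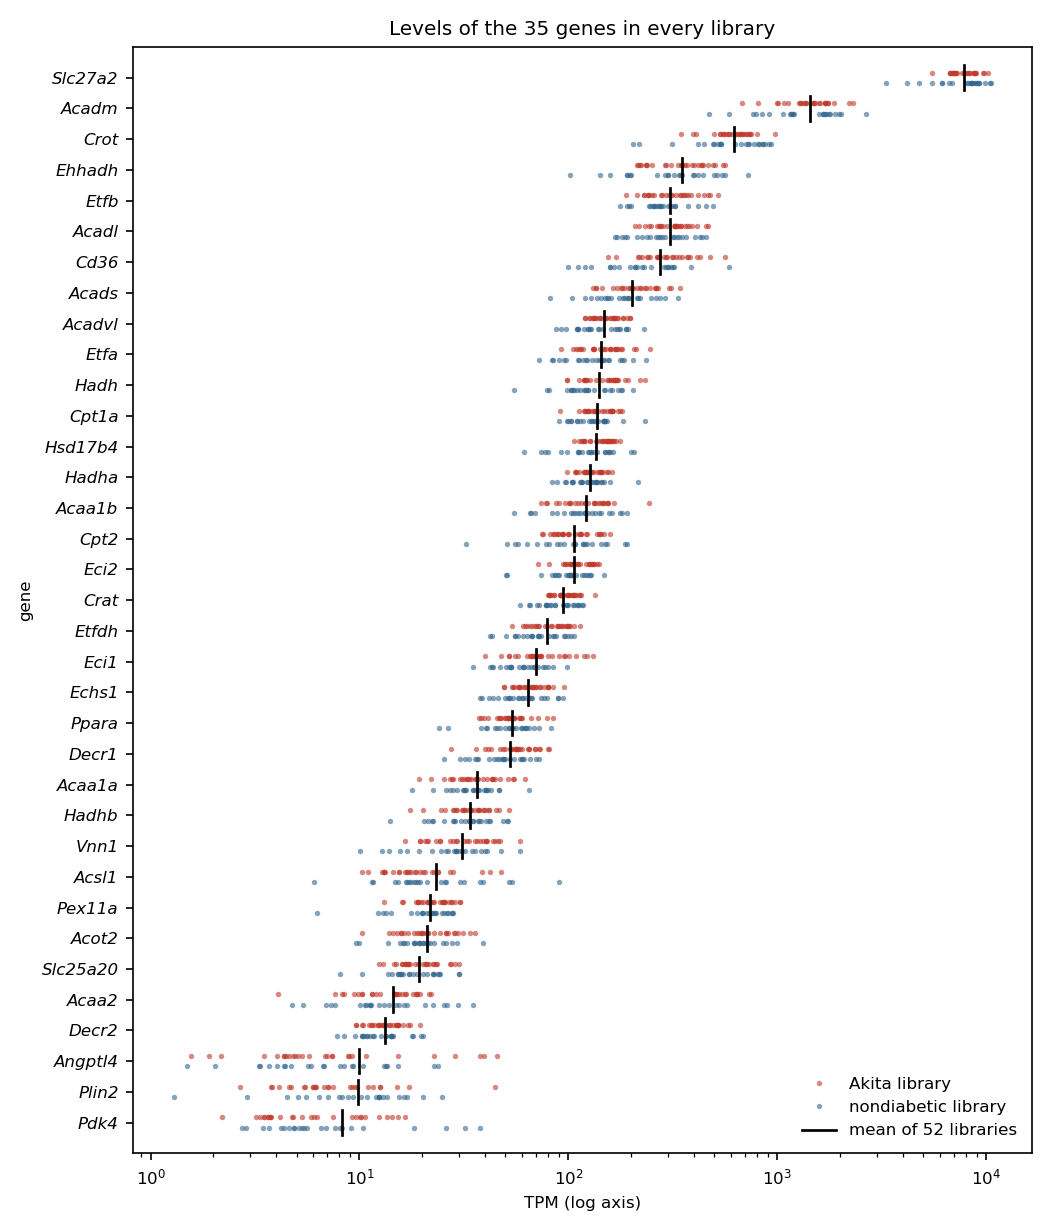
Level of each of the 35 genes in every library, in TPM on a log axis, with Akita libraries as red points, nondiabetic libraries as blue points and the mean of 52 libraries as a black bar. Slc27a2 lies near 7855 TPM and apart from the rest, Acadm near 1429 TPM, and Pdk4, Plin2 and Angptl4 at the bottom have the widest scatter.

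The first question of the design was what diabetes does to these genes. None of the 35 passed the threshold of an adjusted p under 0.05 (limma, Benjamini-Hochberg over all 15424 genes) in any of 4 matched comparisons of Akita with nondiabetic samples or in their average. Over all genes, the percent called was 0.389 in WT with vehicle, 0 in KO with vehicle, 0.00648 in WT with dapagliflozin, 0 in KO with dapagliflozin and 0.966 for the average. Without adjustment, 6 of the 35 had p under 0.05 in WT with vehicle (17.1%, against 10.2% of all genes) and 8 for the average (22.9%, against 13.4%). The counts were 4, 0 and 1 in KO with vehicle, WT with dapagliflozin and KO with dapagliflozin (11.4%, 0% and 2.86%, against 6.65%, 3.46% and 5.12% of all genes).

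The estimates leaned upward in Akita samples without passing the test. For the average, which sets 23 Akita libraries without semaglutide against 24 nondiabetic ones, 32 of the 35 genes had an estimate above 0, against 8710 of 15424 genes, and their median was log2 0.16, against 0.03 for all genes. The medians of the 35 in the 4 comparisons were 0.18 in WT with vehicle, 0.14 in KO with vehicle, 0.20 in WT with dapagliflozin and 0.12 in KO with dapagliflozin. All 4 genes for unsaturated bonds, all 9 of the mitochondrial spiral, all 6 peroxisomal genes, all 4 of the carnitine shuttle and all 3 of electron transfer had averaged estimates above 0. The estimates below 0 were those of Acsl1 (-0.25), Pdk4 (-0.23) and Plin2. Genes of a pathway that vary together between libraries are not independent, so these counts carry no test.

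Other measures of the libraries differed between the same groups. A score of markers of other cell types (mean standardised log2 level of 7 lists) averaged -0.15 in Akita and 0.37 in nondiabetic WT vehicle samples, and the nondiabetic ones ranged from -0.43 to 1.51. The macrophage and dendritic cell list summed to 367 to 491 TPM in Akita and 465 to 778 TPM in nondiabetic WT vehicle samples, and the endothelial list to 216 to 358 and 246 to 460 TPM. In the same order of groups, the loop of Henle list summed to 908 to 1994 and 559 to 4617 TPM, the stromal list to 92.9 to 192 and 88.9 to 584 TPM, the distal list to 39.3 to 485 and 51.0 to 602 TPM and the podocyte list to 13.1 to 35.7 and 14.995 to 96.6 TPM. The sum of TPM averaged 1857900 in Akita and 1422240 in nondiabetic WT vehicle samples. Mitochondrial rRNA made up 40.1 ± 5.91% and 33.4 ± 6.57% of the summed TPM (SD, n = 6 each). With the score as a covariate the averaged median was 0.07 with 24 of 35 estimates above 0, and the WT vehicle median was 0.05. Without the 3 libraries highest on the score, 2 of them nondiabetic WT vehicle, the medians were 0.10 and 0.03, and with the sum of TPM as covariate they were 0.09 and 0.0024. Beyond these refits, the part of other cells in the estimates was not tested.

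**Figure D2:**
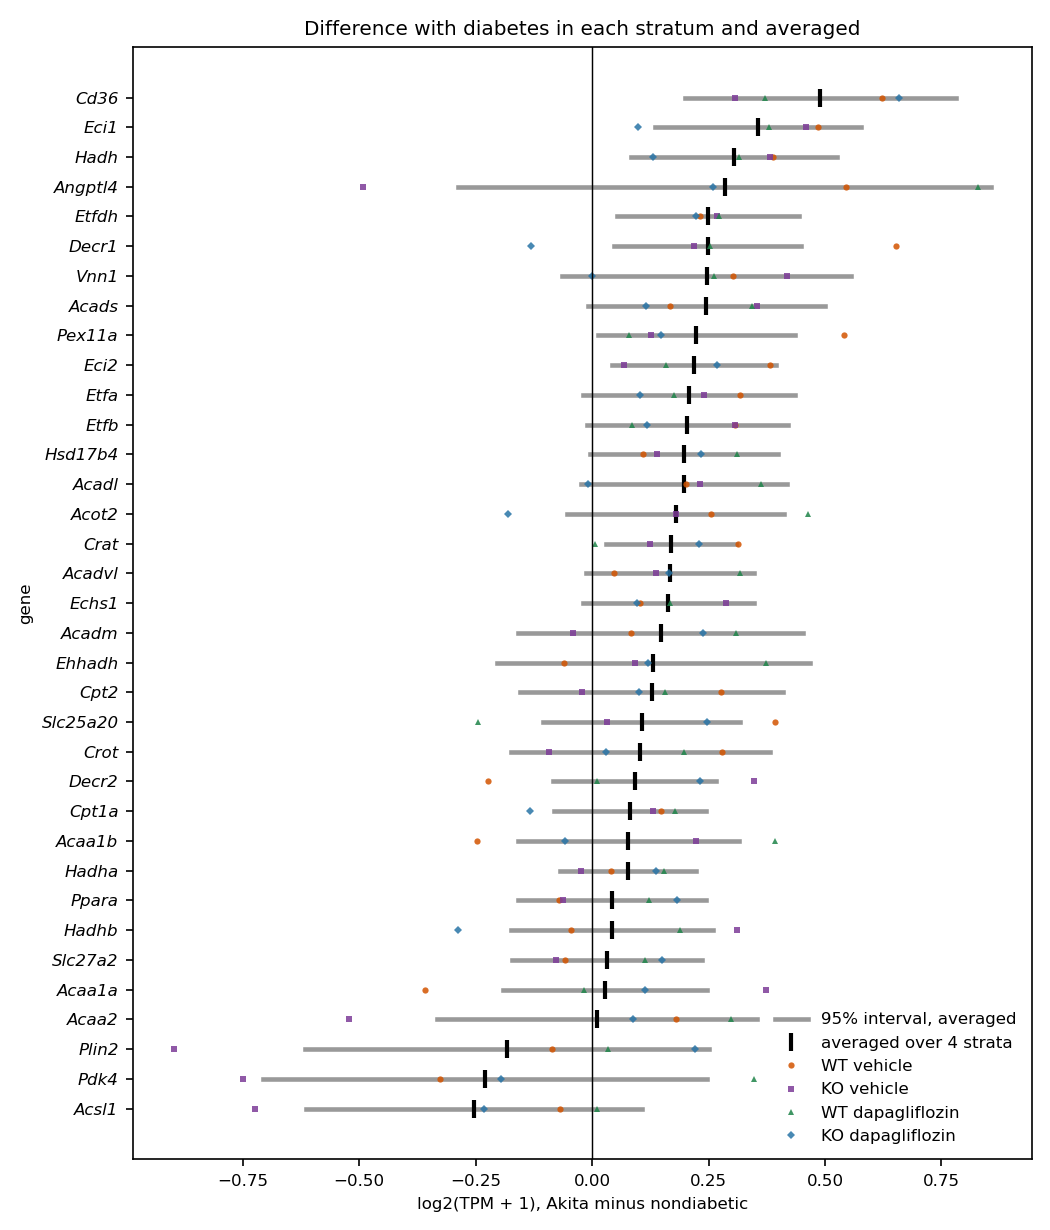
Difference between Akita and nondiabetic samples for each of the 35 genes, in log2(TPM + 1), with the average over 4 strata as a black tick, its unadjusted 95% interval as a grey bar and each stratum as a coloured point. The averages of 32 genes lie right of 0, Cd36 is highest at 0.49, and the low genes Angptl4, Plin2 and Pdk4 have the widest intervals.

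Cd36, the scavenger receptor that takes up fatty acids, had the smallest p of the average (chromosome 5, 17781690 to 17888801). Its lowest, median and highest values were 215, 296 and 563 TPM over 23 Akita libraries, against 99.7, 219 and 587 TPM over 24 nondiabetic libraries. Of the 23 Akita libraries, 21 were above the nondiabetic median, and the ranges overlapped. The means were 319 ± 85.02 and 240 ± 107 TPM, a difference of log2 0.49 (SE 0.14), with an adjusted p of 0.092, which did not pass. It did pass without nondiabetic WT vehicle replicate 5 (adjusted p = 0.048) or without nondiabetic WT dapagliflozin replicate 4 (adjusted p = 0.0248), the library at 587 TPM. Over all alternatives the estimate ran from 0.43 to 0.56 and the adjusted p from 0.0248 to 0.383. The highest adjusted p was that with the score of other cells as covariate, where the estimate was 0.43. Cd36 is also made by endothelium and macrophages. In the WT vehicle pair, endothelial markers had a mean sum of 299.6 TPM in Akita and 367 TPM in nondiabetic samples. Those of macrophages and dendritic cells were at 422 and 621 TPM. Within groups the correlation of Cd36 with the score of other cells missed the threshold (r = -0.13, rho = -0.22, n = 52). The permutation p was 0.414 for r and 0.15 for rho, and adjusted over 140 relations 0.589 and 0.309. Without the 2 farthest libraries r was -0.16. That score pools marker lists of several cell types, so it does not measure endothelium or macrophages alone. Whether RNA of endothelium or macrophages contributed to the Cd36 difference was not tested.

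Eci1 and Hadh followed. Eci1, a mitochondrial isomerase that moves double bonds of unsaturated fatty acids, had 40.1, 73.2 and 131 TPM as lowest, median and highest Akita values, against 35.02, 60.5 and 98.9 TPM in nondiabetic libraries (log2 0.36, SE 0.11, adjusted p = 0.108). Hadh, which oxidises short and medium hydroxyacyl-CoA, had 98.4, 160 and 233 TPM in Akita libraries, against 55.1, 120 and 203 TPM in nondiabetic ones (log2 0.30, SE 0.11, adjusted p = 0.194). The nondiabetic median was exceeded by 18 of 23 Akita libraries for Eci1 and by 17 of 23 for Hadh. Neither passed, and with the other-cell score as covariate the estimates were 0.17 and 0.19 (adjusted p = 0.709 for both).

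The other members, taken by role, had averaged estimates from log2 -0.25 to 0.28, and none passed. In the carnitine shuttle, Crat was at 0.17, Cpt2 at 0.13, Slc25a20 at 0.11 and Cpt1a at 0.08. In the mitochondrial spiral, Acads was at 0.24, Acadl at 0.20, Acadvl, which takes very long chains, at 0.17, Acadm at 0.15, Hadha at 0.08, Hadhb at 0.04 and Acaa2 at 0.01. Electron transfer held Etfdh at 0.25, Etfa at 0.21 and Etfb at 0.20.

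Among the genes for unsaturated bonds, Decr1 was at 0.25, Eci2, an isomerase of peroxisomes and mitochondria, at 0.22 and Decr2, the peroxisomal reductase, at 0.09. Eci2 averaged 114 ± 14.1 TPM in 23 Akita and 100 ± 22.9 TPM in 24 nondiabetic libraries, with 20 of 23 Akita values above the nondiabetic median (adjusted p = 0.249). In peroxisomes, Pex11a was at 0.22, Hsd17b4 at 0.20, Ehhadh at 0.13, Crot at 0.10, Acaa1b at 0.08 and Acaa1a at 0.03. Slc27a2, the most abundant, averaged 7781 ± 1123 TPM in Akita and 7815 ± 1937 TPM in nondiabetic libraries (log2 0.03, SE 0.10). Of the further targets, Angptl4 was at 0.28 (SE 0.28), Vnn1, a pantetheinase, at 0.25 (SE 0.15) and Acot2 at 0.18 (SE 0.12).

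Plin2 and Acsl1 had averaged estimates below 0, and among the strata the size was greatest in KO mice on vehicle. The sign was not the same throughout. Both estimates were above 0 in WT with dapagliflozin, and that of Plin2 also in KO with dapagliflozin. Plin2 averaged 5.52 ± 1.54 TPM in Akita KO vehicle and 11.8 ± 5.47 TPM in nondiabetic KO vehicle samples (SD, n = 6 each, log2 -0.90, SE 0.43, adjusted p = 0.738). Acsl1 averaged 15.3 ± 5.11 and 27.4 ± 14.4 TPM in the same groups (log2 -0.72, SE 0.35, adjusted p = 0.738). In both genes no Akita sample was above the nondiabetic median, the ranges overlapped and the test was not passed.

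In WT mice on vehicle, the direct comparison of diabetes without another factor, Decr1 came first. It encodes the mitochondrial dienoyl-CoA reductase needed for polyunsaturated fatty acids (chromosome 4, 15917240 to 15945507). Its lowest, median and highest values were 52.5, 68.8 and 80.3 TPM in Akita WT vehicle samples and 25.3, 46.9 and 60.2 TPM in nondiabetic WT vehicle samples. All 6 Akita samples were above the nondiabetic median, with overlapping ranges. The means were 67.8 ± 11.9 and 44.1 ± 13.7 TPM (SD, n = 6 each), log2 0.65 (95% interval 0.26 to 1.05, adjusted p = 0.138), which did not pass. In KO with dapagliflozin the estimate had the other sign, with 43.6 ± 10.1 TPM in Akita and 48.2 ± 12.9 TPM in nondiabetic samples. Nondiabetic WT vehicle replicates 1 and 2 were highest of all libraries on the other-cell score (1.51 and 1.21). They also held the lowest Decr1 values of their group (25.3 and 30.4 TPM). Decr1 correlated with that score within groups at r = -0.54 (rho = -0.48, permutation p = 0.00059 and 0.00159, adjusted p = 0.00776 and 0.0148). Whether other cells contributed to the Decr1 difference was not tested.

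Pex11a, which takes part in the division of peroxisomes, was next in that comparison, with 19.8, 25.9 and 30.4 TPM as lowest, median and highest in Akita WT vehicle samples and 12.3, 16.1 and 24.8 TPM in nondiabetic ones (log2 0.54, SE 0.21, adjusted p = 0.325). Crat, carnitine acetyltransferase, had 91.6, 96.9 and 112 TPM in Akita WT vehicle samples, against 58.8, 78.4 and 99.9 TPM in nondiabetic ones (log2 0.31, SE 0.14, adjusted p = 0.409). In both genes all 6 Akita values were above the nondiabetic median and the ranges overlapped. Nondiabetic WT vehicle replicates 1 and 2 held the lowest Crat values of their group (58.8 and 71.1 TPM). Crat correlated with the other-cell score within groups at r = -0.48 (rho = -0.48, permutation p = 0.00154 and 0.00132, adjusted p = 0.0127 and 0.0139). For Pex11a that correlation did not pass (r = -0.35, rho = -0.36, permutation p = 0.0273 and 0.0203, adjusted p = 0.0911 and 0.0711). The remaining members ran from log2 -0.36 for Acaa1a to 0.62 for Cd36. Testing whether diabetes acted differently in KO than in WT mice on vehicle, or with dapagliflozin than with vehicle in WT mice, called none of the 35 (0% of all genes in both), and 2 and 1 of the 35 had an unadjusted p under 0.05 (5.71% and 2.86%, against 4.01% and 4.42% of all genes). The largest estimate with an unadjusted p under 0.05 was that of Acaa1a for the first (log2 0.73, adjusted p = 0.999).

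Genes of the same pathways outside the 35 did pass. Lists of further genes, chosen with earlier results known, gave 2 of 27 tested peroxisomal genes called for averaged diabetes (7.41%), both higher, 2 of 22 further PPAR alpha targets (9.09%), both higher, and none of 20 genes of mitochondrial oxidation, 15 of uptake, binding and activation, 13 receptor partners and 10 of lipid droplets. Of all genes 0.966% were called in that comparison. The medians of the lists were 0.13, 0.09, -0.02, 0.04, -0.03 and 0.04, against 0.03 for all genes. In WT with vehicle, 1 peroxisomal gene (3.7%) and 1 further target (4.55%) were called, both higher, against 0.389% of all genes, and no gene of these lists was called in any knockout, dapagliflozin or semaglutide comparison.

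Hao2, a peroxisomal hydroxyacid oxidase of kidney, was higher with diabetes. Its lowest, median and highest values were 106, 195 and 332 TPM in Akita WT vehicle samples and 54.1, 59.9 and 108 TPM in nondiabetic WT vehicle samples, so that the ranges barely overlapped. The means were 200 ± 89.4 and 66.8 ± 20.5 TPM (SD, n = 6 each), a rise of log2 1.49 (SE 0.31, adjusted p = 0.00708). Averaged over strata, Hao2 was higher by log2 0.74 (SE 0.15, adjusted p = 0.00554), and the nondiabetic median of 66.4 TPM was exceeded in all 23 Akita libraries. The adjusted p was 0.0654 in WT vehicle with the sum of TPM as covariate and 0.0522 for the average with the other-cell score as covariate.

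Mgll, which splits monoacylglycerol into glycerol and a fatty acid, was also higher. It had 75.9, 110 and 164 TPM as lowest, median and highest in Akita WT vehicle samples, against 22.8, 45.3 and 113 TPM in nondiabetic ones (log2 1.21, SE 0.28, adjusted p = 0.0206), and log2 0.60 (SE 0.14, adjusted p = 0.0194) for the average. Acot4, a peroxisomal thioesterase, averaged 34.7 ± 5.67 TPM in 23 Akita and 26.6 ± 7.26 TPM in 24 nondiabetic libraries (adjusted p = 0.0404), and Gpd1, the cytosolic glycerol-3-phosphate dehydrogenase, 161 ± 40.8 and 122 ± 34.9 TPM (adjusted p = 0.0492). With the other-cell score as covariate none of the 3 passed for the average (adjusted p = 0.145, 0.602 and 0.456). The call of Mgll in WT vehicle was lost (adjusted p up to 0.0924) without any 1 of Akita WT vehicle replicates 1, 4 and 5 and nondiabetic WT vehicle replicates 3 and 6, that of Acot4 without any 1 of 21 of 47 libraries (up to 0.0729) and that of Gpd1 without any 1 of 32 of 47 (up to 0.0979).

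**Figure D3:**
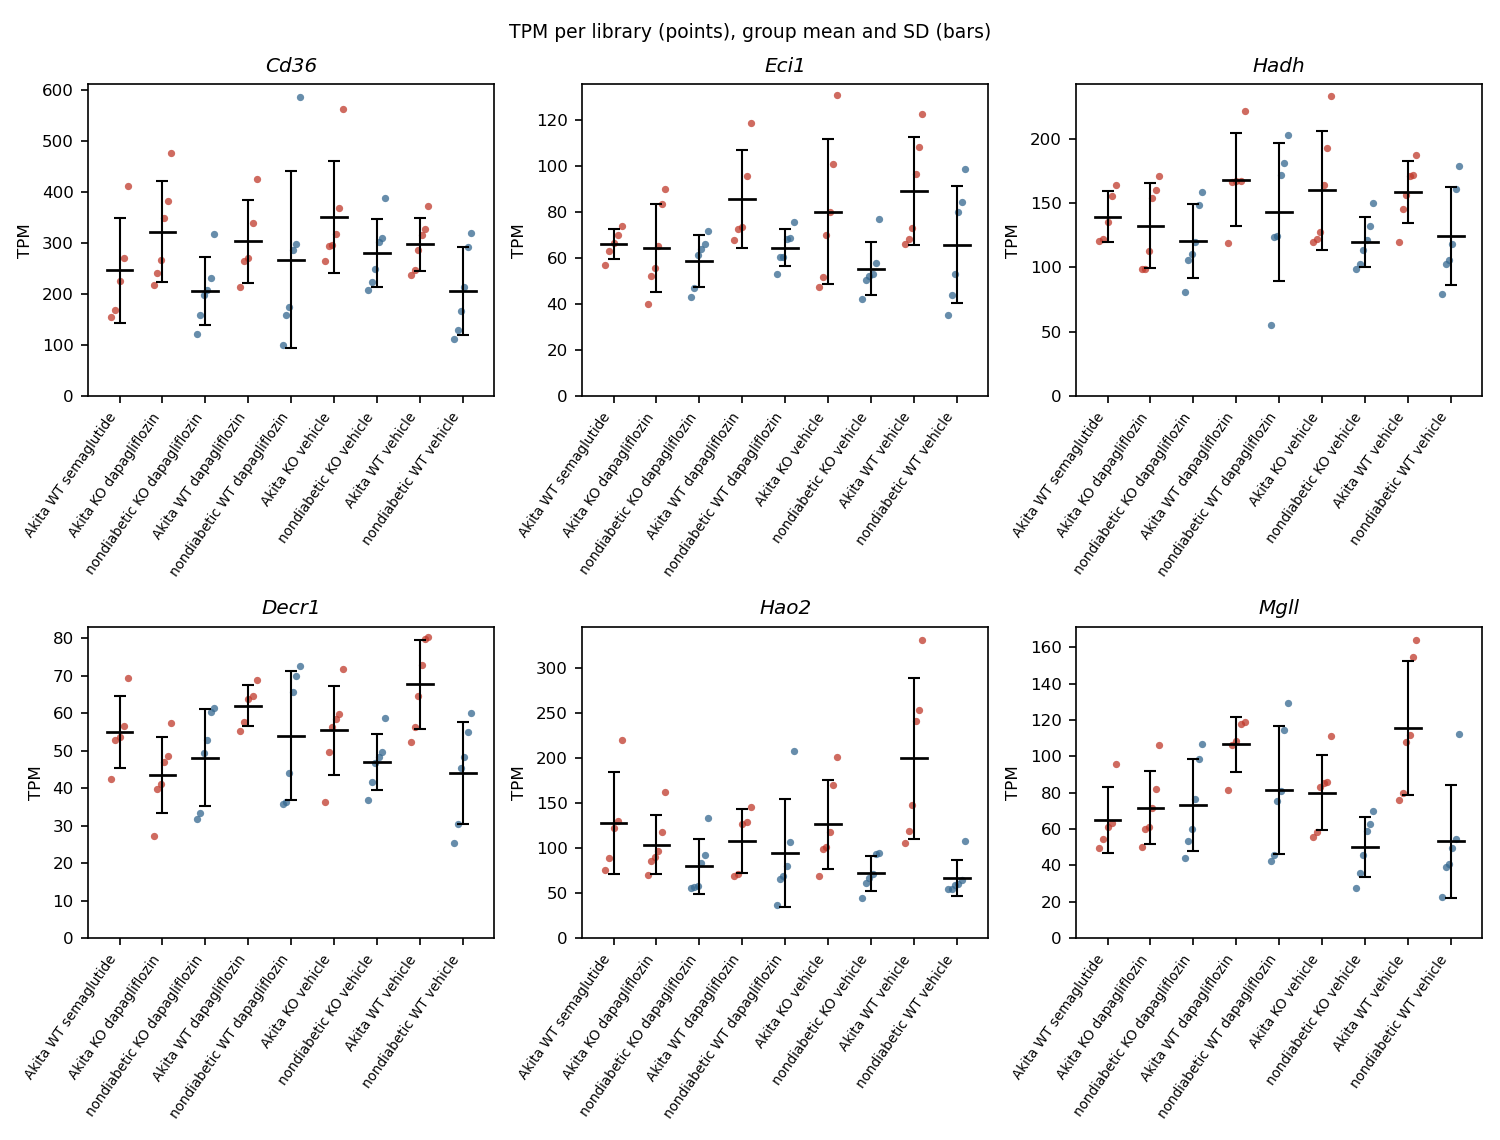
TPM of Cd36, Eci1, Hadh, Decr1, Hao2 and Mgll in every library of the 9 groups, Akita in red and nondiabetic in blue, with the mean and SD in black. In each matched pair of groups the means of Hao2, Cd36, Eci1 and Hadh are higher in Akita, that of Hao2 most in WT with vehicle (200 and 66.8 TPM). Mean Decr1 is lower in Akita in KO with dapagliflozin. The ranges of Hao2, Cd36, Eci1, Hadh and Decr1 overlap in each pair.

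The second question was whether loss of SGLT1 alters these genes. None of the 35 was called in KO against WT samples. Over all genes the percent called was 0.0195 in nondiabetic vehicle, 0.0259 in Akita vehicle, 0.0324 in nondiabetic dapagliflozin, 0.0195 in Akita dapagliflozin and 0.0519 for the average. Of the 35, 9 had an averaged estimate above 0, with a median of log2 -0.05, against 0.00 for all genes, and 2 had an unadjusted p under 0.05 (5.71%, against 7.22% of all genes). In the single strata, in the order above, the unadjusted counts were 1, 1, 3 and 2 (2.86%, 2.86%, 8.57% and 5.71%, against 5.20%, 3.10%, 6.94% and 3.30% of all genes). The sum of TPM averaged 1379900, 1644200, 1363800 and 1368310 in the KO samples of these strata, in the same order. In the matched WT samples it averaged 1422240, 1857900, 1847250 and 1603190. With the sum of TPM as covariate, 23 of the 35 averaged estimates were above 0 and the median was 0.04. Beyond this refit, the part of library scaling in the knockout estimates was not tested.

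Eci1 had 40.1, 59.5 and 131 TPM as lowest, median and highest over 24 KO libraries and 35.02, 72.5 and 123 TPM over 23 WT libraries without semaglutide (log2 -0.24, SE 0.11, adjusted p = 0.666). Decr1 had 27.4, 49.0 and 72.0 TPM in KO and 25.3, 57.6 and 80.3 TPM in WT libraries (log2 -0.21, SE 0.10, adjusted p = 0.673). For Etfb the values were 177, 273 and 522 TPM in KO and 191, 329 and 494 TPM in WT libraries (log2 -0.20, SE 0.11, adjusted p = 0.723), and the sign turned with the sum of TPM as covariate (0.04, adjusted p = 0.981). In each of the 3 genes the ranges of KO and WT libraries overlapped.

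Of the 35 genes, 5 lie on chromosome 5, which carries Slc5a1. Their averaged differences between KO and WT were 0.15 for Cd36, 0.08 for Crot (8966033 to 8997324), 0.01 for Hadha, 0.05 for Hadhb and -0.01 for Acads, the short-chain acyl-CoA dehydrogenase (115110299 to 115119346). No adjusted p among them was below 0.854. The interval for Hadha, the most even of the 5 between libraries, ran from -0.13 to 0.16.

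The third question concerned dapagliflozin. None of the 35 was called in any dapagliflozin comparison. The percent called over all genes was 0.00648 in nondiabetic WT and 0 in nondiabetic KO, Akita WT, Akita KO and the average. At an unadjusted p under 0.05 were 3, 0, 0, 1 and 1 of the 35 (8.57%, 0%, 0%, 2.86% and 2.86%, against 7.03%, 4.74%, 2.39%, 3.13% and 4.09% of all genes). The averaged median was log2 -0.06, against 0.00 for all genes, with 8 of 35 estimates above 0, and under array weights it was 0.01 with 18 above 0.

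Acaa1b had the smallest p of the average, with 54.7, 114 and 180 TPM as lowest, median and highest over 23 dapagliflozin libraries, against 78.4, 127 and 242 TPM over 24 vehicle libraries (log2 -0.28, SE 0.12, adjusted p = 0.999). In nondiabetic WT samples it averaged 103 ± 44.6 TPM with dapagliflozin and 148 ± 34.2 TPM with vehicle (SD, n = 6 each). Hadha had 83.2, 122 and 161 TPM with dapagliflozin and 97.4, 131 and 216 TPM with vehicle, and Plin2 1.29, 10.9 and 44.7 TPM with dapagliflozin and 2.90, 7.26 and 20.1 TPM with vehicle (adjusted p = 0.999 for both). In these 3 genes the dapagliflozin and vehicle ranges overlapped.

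In Akita WT samples Acsl1 was at 13.3, 14.4, 16.5, 16.8 and 17.6 TPM in the 5 dapagliflozin libraries and at 15.5, 23.1 and 38.5 TPM as lowest, median and highest of 6 vehicle libraries (log2 -0.56, 95% interval -1.31 to 0.19, adjusted p = 1). All 5 dapagliflozin values were below the vehicle median. Ehhadh was at 295, 362, 443, 467 and 494 TPM with dapagliflozin, against 216, 272 and 434 TPM with vehicle (log2 0.48, 95% interval -0.22 to 1.17, adjusted p = 1), with all 5 above the vehicle median. Hadhb was at 20.1, 29.3, 31.7, 34.1 and 36.8 TPM with dapagliflozin, against 28.8, 36.7 and 40.2 TPM with vehicle (log2 -0.24, adjusted p = 1). For Acsl1 and Ehhadh the intervals held both 0 and a difference of more than log2 1.

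Combined absence of SGLT1 and block of SGLT2 was set against WT on vehicle. None of the 35 was called in Akita or in nondiabetic samples, where 0.0324 and 0.0195 percent of all genes were, and 3 and 2 of the 35 had an unadjusted p under 0.05 (8.57% and 5.71%, against 5.01% and 5.66% of all genes). Decr1 had the smallest p, at 43.6 ± 10.1 TPM in Akita KO with dapagliflozin and 67.8 ± 11.9 TPM in Akita WT with vehicle (SD, n = 6 each, log2 -0.64, SE 0.20, adjusted p = 0.633). The same vehicle samples stand in the WT comparison of diabetes above, so the estimates of Decr1 in both share them.

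The last question was semaglutide, tested in Akita WT samples. None of the 35 was called against vehicle or against dapagliflozin, and 0% of all genes were called in both, with 2 and 1 of the 35, and 5.19% and 3.52% of all genes, at an unadjusted p under 0.05. Against vehicle 10 of 35 estimates were above 0 with a median of log2 -0.12, against -0.01 for all genes. The other-cell score was 0.16 ± 0.26 with semaglutide and -0.15 ± 0.38 with vehicle (SD, n = 5 and 6), and with it as covariate the median was -0.07 with 15 estimates above 0.

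Acot2 had the smallest p. Its 5 semaglutide libraries were at 13.9, 14.5, 15.7, 20.02 and 22.8 TPM, and its vehicle libraries had 18.2, 27.2 and 31.2 TPM as lowest, median and highest. All 5 were below the vehicle median, with overlapping ranges (log2 -0.53, 95% interval -1.01 to -0.05, adjusted p = 0.942). The same gene was at 18.8, 19.6, 25.9, 29.7 and 33.9 TPM with dapagliflozin.

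Pex11a was at 15.9, 16.2, 19.0, 19.1 and 20.1 TPM with semaglutide, against 19.8, 25.9 and 30.4 TPM with vehicle (log2 -0.46, SE 0.22, adjusted p = 0.942). With dapagliflozin it was at 21.0, 21.9, 22.6, 25.3 and 27.7 TPM, so that no semaglutide library reached the dapagliflozin range, although that difference did not pass either (log2 -0.38, adjusted p = 1). Over the 19 comparisons of samples, no other of the 35 genes had such a gap between its groups. How many of all genes had such a gap was not counted, so it does not set Pex11a apart. Nondiabetic WT vehicle samples averaged 17.5 ± 5.43 TPM of Pex11a.

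Angptl4 was at 1.56, 4.34, 4.58, 4.83 and 7.37 TPM with semaglutide, against 2.16, 7.80 and 45.6 TPM as lowest, median and highest with vehicle. The estimate was log2 -1.01 (95% interval -2.20 to 0.17, adjusted p = 0.983), and leaving out 1 library moved it between -1.36 and -0.58, the smaller size being that without Akita WT vehicle replicate 1, the library at 45.6 TPM. The gene had the widest spread of the 35.

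**Figure D4:**
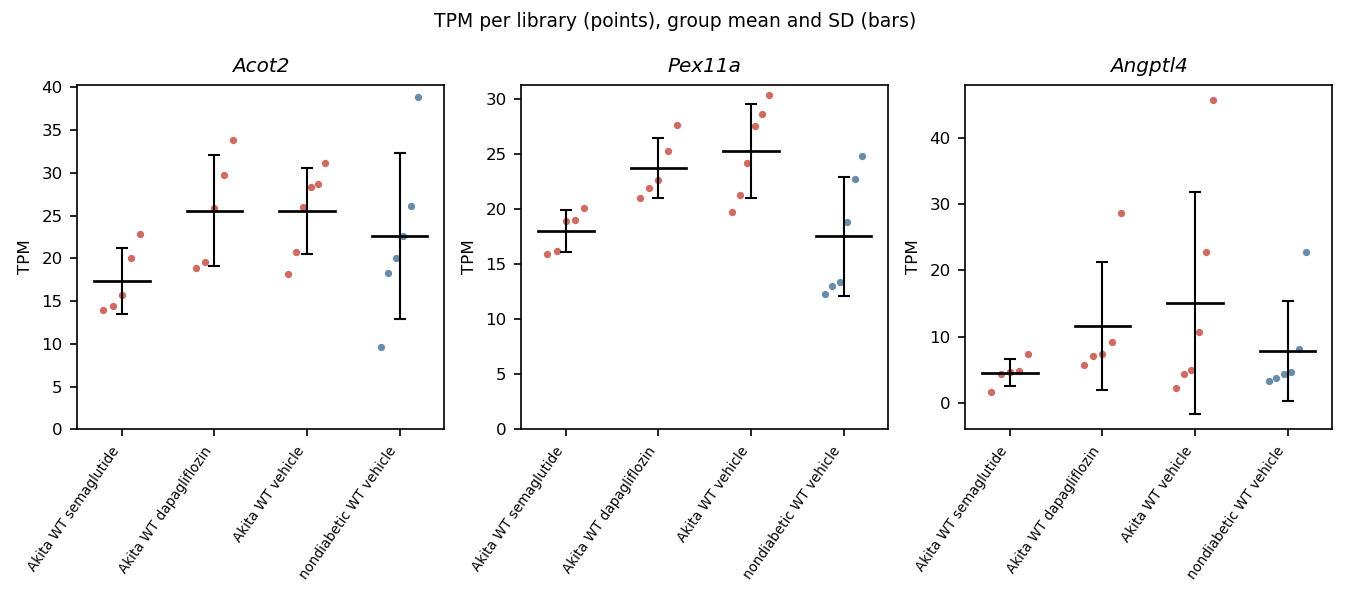
TPM of Acot2, Pex11a and Angptl4 in each library of 4 WT groups, Akita in red and nondiabetic in blue, with the mean and SD in black. All 5 semaglutide values of Acot2 and Pex11a lie below the Akita vehicle median, and the highest Angptl4 values of the Akita vehicle group are 45.6 and 22.8 TPM around a mean of 15.1 TPM.

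The genes varied together from library to library. With group means removed, the 595 pairs of the 35 genes had a median Pearson r of 0.47 over 52 libraries, against 0.01 for pairs of all tested genes, and 59.3% of pairs exceeded 0.4, against 2.99%. Permutation within groups gave an adjusted p under 0.05 for 419 pairs (Benjamini-Hochberg over 595), 404 positive and 15 negative. After also removing the other-cell score, the S1 and S2 score, the percent of mitochondrial rRNA and the sum of TPM, the median r was 0.40. All genes of a library share its scaling, the summed TPM ran from 984393 to 2253870 between libraries, and the 52 libraries share tissue and method. The level of S3 markers was not removed, and no other set of S3 genes was compared. Whether the correlation is particular to this pathway was therefore not tested.

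Hsd17b4, the second bifunctional enzyme of peroxisomes, and Acadl had the highest median correlations with the other members, 0.68 and 0.67. In the mitochondrial spiral Hadha, Hadhb and Acaa2 were lower, at 0.37, 0.34 and -0.10. Acadl correlated with Hsd17b4 at r = 0.87 (rho = 0.87, permutation p = 1e-05, the smallest possible, adjusted p = 5e-05 and 4.72e-05), and at r = 0.86 without the 2 libraries farthest from the median. Hadh correlated with Etfdh, which passes electrons to ubiquinone, at r = 0.86 (rho = 0.86, permutation p = 1e-05, adjusted p = 5e-05 and 4.72e-05; r = 0.84 without 2 libraries). Ppara had a lower median correlation with the others, 0.27, and its highest was with Slc27a2 (r = 0.57, rho = 0.53, permutation p = 0.0011 and 0.00082, adjusted p = 0.00235 and 0.00197; r = 0.47 without 2 libraries). Subunit pairs correlated at r = 0.70 for Etfa with Etfb (rho = 0.74, permutation p = 1e-05, adjusted p = 5e-05 and 4.72e-05; r = 0.73 without 2 libraries) and r = 0.53 for Hadha with Hadhb (rho = 0.45, permutation p = 0.00033 and 0.00264, adjusted p = 0.000832 and 0.0051; r = 0.53 without 2 libraries).

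Acsl1, Acaa2 and Plin2 went apart from the rest, with median correlations of -0.26, -0.10 and 0.05. The highest correlation of Plin2 was with Hadhb (r = 0.59). Acaa2, the mitochondrial 3-ketoacyl-CoA thiolase, correlated with Acsl1 at r = 0.73 (rho = 0.62, permutation p = 1e-05, adjusted p = 5e-05 and 4.72e-05; r = 0.62 without 2 libraries), while Acsl1 with Crot gave r = -0.70 (rho = -0.57, permutation p = 1e-05 and 0.0001, adjusted p = 5e-05 and 0.000331; r = -0.62 without 2 libraries). The score of other cell types correlated positively with the same 3 genes. For Acsl1, r was 0.62 and rho 0.58 (permutation p = 4e-05 and 5e-05, adjusted over 140 relations 0.00187 and 0.0035; r = 0.58 without 2 libraries). For Acaa2, r was 0.56 and rho 0.52 (permutation p = 0.00027 and 0.00051, adjusted p = 0.00525 and 0.0102; r = 0.58 without 2 libraries). For Plin2, r was 0.37 and rho 0.31 (permutation p = 0.00889 and 0.0364, adjusted p = 0.0378 and 0.108; r = 0.35 without 2 libraries), so that the rank measure did not pass. The score correlated negatively with 14 others at an adjusted p under 0.05, Acadm among them (r = -0.57, rho = -0.55, permutation p = 0.00013 and 0.00028, adjusted p = 0.00364 and 0.00812; r = -0.50 without 2 libraries).

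The score of S1 and S2 markers also went with these 3 genes, and with Acaa1a and Cpt1a. For Acsl1, r was 0.52 and rho 0.42 (permutation p = 0.00012 and 0.00314, adjusted over 140 relations 0.00364 and 0.0191; r = 0.49 without 2 libraries). For Acaa2, r was 0.49 and rho 0.50 (permutation p = 0.00083 and 0.00085, adjusted p = 0.0087 and 0.0119; r = 0.50 without 2 libraries). For Plin2, r was 0.42 and rho 0.34 (permutation p = 0.00397 and 0.0184, adjusted p = 0.0211 and 0.0665; r = 0.40 without 2 libraries), and the rank measure did not pass. By the adjusted p of Pearson's r, 5 members correlated positively and 4 negatively with the S1 and S2 score, 10 positively and 0 negatively with the sum of TPM, and 1 positively and 1 negatively with the percent of mitochondrial rRNA. Etfb had the highest correlation with the sum of TPM (r = 0.76, rho = 0.75, permutation p = 1e-05, adjusted p = 0.0014; r = 0.75 without 2 libraries).

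The spread between libraries differed by gene. Within groups the SD of log2 level was lowest for Crat (0.23), Hadha (0.24) and Cpt1a (0.28), and highest for Angptl4 (1.01), Pdk4 (0.84) and Plin2 (0.77). The median of the 35 was 0.385 and that of all tested genes 0.429. Angptl4 and Pdk4, both known to respond to fasting in mouse tissues, correlated with each other (r = 0.63, rho = 0.57, permutation p = 1e-05 and 4e-05, adjusted p = 5e-05 and 0.000157; r = 0.60 without 2 libraries).

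**Figure D5:**
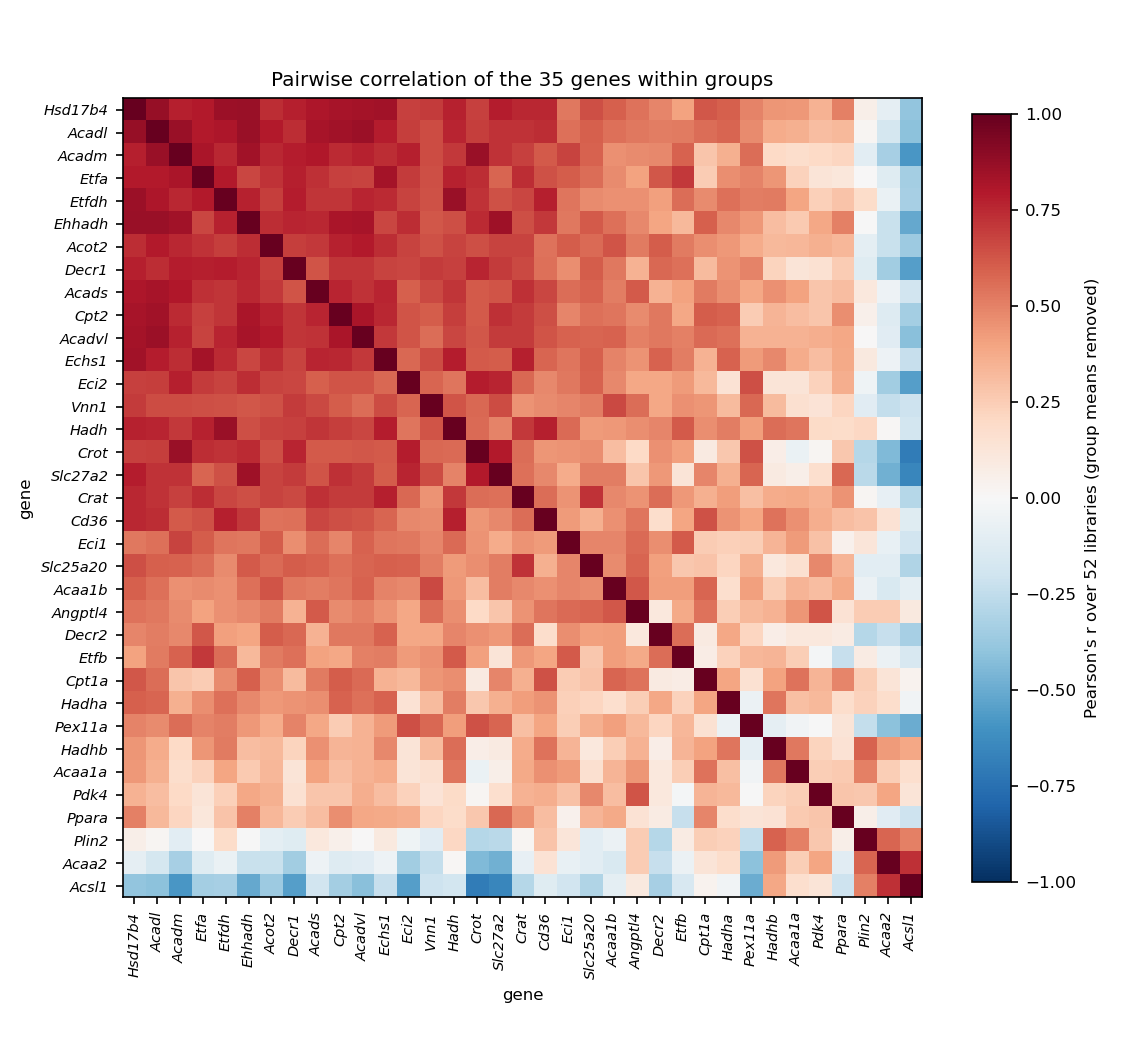
Pearson's r between each pair of the 35 genes over 52 libraries, group means removed, ordered by each gene's median r. The genes from Hsd17b4 to Slc27a2 correlate positively with each other throughout, with Acadl and Hsd17b4 at 0.87. Plin2, Acaa2 and Acsl1 stand at the end, where Acaa2 and Acsl1 correlate with each other at 0.73. The highest r of Plin2 is 0.59, with Hadhb.

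PPAR alpha with RXR binds paired copies of AGGTCA with 1 base between them, so the promoters of the genes were read for this arrangement. RefSeq sequences (GRCm38.p6, 250 bases before to 50 after the start) were found for 29 of the 35 genes, 30 promoters. With up to 2 mismatches over the 12 set bases, on either strand, 5 member promoters held a match (16.7%), against 1268 of all 32851 promoters (3.86%). With up to 1 mismatch the counts were 0 and 182, and the limit of 2 was chosen after that was seen. The 5 matches in the member promoters are given 5′ to 3′ on the strand of the gene, with the 13 matched bases in capitals. Sequence farther from the RefSeq starts was not read.
Plin2: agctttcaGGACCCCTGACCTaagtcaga
Cd36: tggttctcTGGCCTCTGACTTacttggat
Echs1: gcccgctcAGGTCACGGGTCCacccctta
Etfa: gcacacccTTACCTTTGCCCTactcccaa
Slc25a20: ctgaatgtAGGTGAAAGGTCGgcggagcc
They lie at chr4:86670264-86670292 (minus strand, match starting at -225 from the RefSeq start), chr5:17835939-17835967 (minus, -63), chr7:140116484-140116512 (minus, -83), chr9:55512300-55512328 (minus, -77) and chr9:108662134-108662162 (plus, at 7 after the start). In Plin2, Cd36 and Etfa the repeat is on the opposite strand. The Cd36 match lies inside the span given above for that gene and not at its upstream end. A match is a description of letters and not a binding site.

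The 5 genes with these sequences had unlike values. Their averaged differences with diabetes were 0.49 for Cd36, 0.21 for Etfa, 0.16 for Echs1, an enoyl-CoA hydratase, 0.11 for Slc25a20 and -0.18 for Plin2, and none passed. Within groups their median correlations with the other members were 0.64 for Etfa, 0.60 for Echs1, 0.51 for Cd36, 0.49 for Slc25a20 and 0.05 for Plin2.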

How the data were processed

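RNA was sequenced from 54 samples, and 52 have a column in the deposited table. Replicate 1 of Akita WT with semaglutide and replicate 2 of Akita WT with dapagliflozin were not analysed here. The deposited values are labelled by the submitters as having an outlier removed. Whether that label refers to these samples is not given in the sources used here. Per the labels' protocols, each sample was 70 to 80 tubules, from which 0.5 ng of total RNA (DV200 above 30%) went into a stranded total RNA library kit. The table deposited by the authors holds log10 TPM per gene, with blank cells (7.02%) read here as 0. The genome was GRCm38, per the submitters' processing notes; the aligner and the counter: not given in the sources used here. In 51 of 52 libraries the TPM sum to more than TPM can by definition, so the scaling is not plain TPM, and read depth is unknown.

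Values were turned to TPM and tested as log2(TPM + 1) with limma 3.58.1 (R 4.3.3; 9 group means, trend and robust) over the 15424 genes averaging 1 TPM or more, in 21 comparisons, with Benjamini-Hochberg adjustment over all genes and a call at adjusted p under 0.05. Averaged comparisons give each stratum equal weight. The fit was tested on simulated data. Labels give no batch. Correlations used residuals from group means and 100000 permutations within groups. Stretches of 50 bases were compared between GENCODE transcripts. Python 3.11.15 with numpy 2.4.6, pandas 2.3.3, scipy 1.17.1 and matplotlib 3.10.9 was used for the rest.

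Members and lists were chosen with earlier results of these data known. Genes given in full are any called, up to 3 members with the smallest p in each averaged comparison, in diabetes in WT with vehicle, and in dapagliflozin and semaglutide in Akita WT, and members on the chromosome of Slc5a1; others named were chosen after their values were seen. Alternatives were the pseudocount (0.1), no filter, median-ratio scaling, array weights, compared groups alone, 3 covariates (other-cell score, S1 and S2 score, percent of mitochondrial rRNA) and each library left out. The sum of TPM as covariate and leaving out the 3 libraries highest on the other-cell score were chosen after seeing the data.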

Additional observations from a re-analysis of the deposited data

Results flagged for a closer look

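Of 315 sets of 1 gene in 1 group, 20 (6.35%) had a library set apart from the others of its group by Dixon's criterion, and chance alone gives about 1 in 20. Replicate 3 of nondiabetic KO with dapagliflozin held 4 of them. It had 89.9 TPM of Acsl1 and 35.1 TPM of Acaa2, against medians of 18.3 and 10.7 TPM in the other replicates, and 6.28 TPM of Pex11a and 10.1 TPM of Vnn1, against 22.3 and 31.9 TPM. Replicate 5 of Akita KO with vehicle held 3, with 563 TPM of Cd36, 121 TPM of Eci2 and 37.7 TPM of Angptl4, against 296, 103 and 4.03 TPM in the others.

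Angptl4 was also apart at 39.6 TPM in Akita KO with dapagliflozin, 28.6 TPM in Akita WT with dapagliflozin and 22.8 TPM in nondiabetic WT with vehicle, against medians of 8.83, 7.20 and 4.39 TPM. Plin2 was at 44.7 TPM in 1 Akita KO dapagliflozin library, against 8.98 TPM, and at 1.29 TPM in 1 nondiabetic WT dapagliflozin library, against 12.4 TPM. Ppara was at 84.5 TPM in 1 Akita WT semaglutide library, against 50.4 TPM, and at 37.4 TPM in 1 Akita KO dapagliflozin library, against 52.6 TPM. Acsl1 was at 42.2 TPM in 1 Akita WT semaglutide library, against 18.3 TPM.

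Among Akita WT vehicle libraries, Slc27a2 was apart at 8330 TPM, against 7063 TPM, and Acads at 309 TPM, against 199 TPM. Cpt2 was apart at 159 TPM in Akita KO with dapagliflozin, against 93.2 TPM, Acadvl at 193 TPM in nondiabetic KO with vehicle, against 124 TPM, and Pdk4 at 8.21 TPM in nondiabetic WT with dapagliflozin, against 4.86 TPM.

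In 4 pairs of comparisons, all samples of 1 contrast lay above the median of the group they were set against and none did in the matching contrast. The pairs are not separate results. Both pairs of Decr2 use the WT vehicle contrast, and both pairs of Hadhb use the same nondiabetic groups. How often such pairs occur among all genes was not counted. With diabetes, Decr2 was at log2 0.35 in KO with vehicle and 0.23 in KO with dapagliflozin, but at -0.22 in WT with vehicle. The test of the first difference gave 0.57 (limma, adjusted p = 0.999), and the second was not tested. Hadhb in KO against WT was at 0.51 in nondiabetic dapagliflozin samples and -0.35 in nondiabetic vehicle samples, and with dapagliflozin against vehicle it was at 0.39 in nondiabetic KO and -0.47 in nondiabetic WT samples. The difference in Hadhb was not tested.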

How the results depend on the processing

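The count of members called was 0 in all 21 comparisons under every alternative run, except that for averaged diabetes it ranged from 0 to 1 when single libraries were left out, Cd36 being called without nondiabetic WT vehicle replicate 5 or nondiabetic WT dapagliflozin replicate 4. The adjusted p of Cd36 ranged from 0.0248 to 0.383. The estimate of Etfb for the averaged knockout reversed to 0.0429 with the sum of TPM as covariate, and the cause was not tested. For diabetes in KO with dapagliflozin the median of the members was -0.0067 under array weights, with 17 of 35 estimates above 0, and in KO with vehicle it was -0.00037 with the other-cell score as covariate, again with 17. Median-ratio rescaling moved the median of all genes by less than 0.1 in the comparisons given.

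Of the genes outside the members, the averaged calls of Mgll and Hao2 held without each single library, and the averaged call of Gpd1 was lost under 7 alternatives besides the left-out libraries (adjusted p from 0.0558 to 0.456). Besides the loss with the other-cell score given above, the averaged call of Mgll was lost with the sum of TPM as covariate (adjusted p = 0.0556). That of Acot4 was lost with the same covariate (0.106) and without the 3 libraries highest on the other-cell score (0.186). The call of Mgll in WT vehicle was lost with the compared groups alone (adjusted p = 0.213), with the other-cell score (0.0724) or the sum of TPM (0.257) as covariate and without the 3 libraries (0.0565). No paired analysis was possible because replicate numbers were assigned within groups and pair no samples. Groups of 5 or 6 libraries, an unknown read depth, a sum of TPM that differed between libraries and RNA of other cells limit what differences of the size seen here could pass.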
